A study of Mus musculus with 4 samples.

Results

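The potassium channel genes of the mouse were examined for peaks of H3K36me2, dimethylation of histone H3 at lysine 36, in cultured bone marrow mesenchymal stem cells. Members were the protein-coding genes on chromosomes 1 to 19 whose GRCm38 RefSeq symbol is Kcn, then letters, then a number. This gave 91 of 20665 protein-coding genes on those chromosomes. By role they were 39 voltage-gated pore or modifier subunits, 8 calcium- or sodium-activated channels, 15 inward rectifiers, 14 leak channels with 2 pore domains, and 15 accessory subunits. A peak counted for a gene when it overlapped the gene body or the 10 kb on either side by at least 1 bp.

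The study compared 2 conditions, each with 1 chromatin immunoprecipitation (ChIP) library and 1 input library made without antibody. One group of cells received 1 µM melatonin, the pineal hormone, for 24 hours, and the other was untreated. All came from mouse bone marrow, were grown in DMEM with fetal bovine serum, and are labelled mesenchymal stem cells; the series' design text refers to old donors. Mouse strain, sex, age in numbers and whether animals were pooled are not given in the sources used here. A general treatment note repeated for every sample describes melatonin, so the groups were taken from the treatment field of each sample. With 1 library per condition, differences below are between 2 libraries, with no replicate check and no p-value between conditions, and intervals cover counting error only.

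Potassium channels let potassium leave the cell through a selective pore and so hold the membrane potential negative. Voltage-gated channels open on depolarisation, inward rectifiers and leak channels act around the resting potential, and calcium-activated channels tie the potential to cytosolic calcium. Accessory subunits change the gating or surface level of the pore subunits. Currents of the BK type (Kcnma1), the ether-à-go-go type (Kcnh1) and the inward rectifier type (Kcnj2) have been recorded in marrow stromal cells. H3K36me2 is written by NSD enzymes and others, over gene bodies and over sequence between genes.

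The neighbouring inward rectifier genes Kcnj16 and Kcnj2 on chromosome 11 held the peaks that lay closest to a start site among the 67 potassium channel genes in the promoter table. Promoter windows run from 250 bases before to 50 after a start site. Those at the Kcnj2 start and at the Kcnj16 starts nearest to a peak are shown because the peaks are described against them. The sequences are from RefSeq (GRCm38.p6), plus strand, with CG dinucleotides in capitals.
Kcnj16 first start, chr11:110967783-110968082: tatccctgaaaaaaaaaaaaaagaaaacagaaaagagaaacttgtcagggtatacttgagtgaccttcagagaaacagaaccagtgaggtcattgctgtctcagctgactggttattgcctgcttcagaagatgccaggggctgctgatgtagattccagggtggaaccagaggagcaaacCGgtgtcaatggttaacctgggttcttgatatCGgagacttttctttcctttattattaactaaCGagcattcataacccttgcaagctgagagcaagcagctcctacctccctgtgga
Kcnj16 second start, chr11:110997237-110997536: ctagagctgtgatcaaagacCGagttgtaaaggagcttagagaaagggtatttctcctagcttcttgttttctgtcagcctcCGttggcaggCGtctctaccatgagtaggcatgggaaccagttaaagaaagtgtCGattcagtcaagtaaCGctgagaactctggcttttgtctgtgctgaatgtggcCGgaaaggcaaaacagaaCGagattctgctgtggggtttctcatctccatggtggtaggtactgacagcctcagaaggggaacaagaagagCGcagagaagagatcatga
Kcnj2 start, chr11:111065914-111066213: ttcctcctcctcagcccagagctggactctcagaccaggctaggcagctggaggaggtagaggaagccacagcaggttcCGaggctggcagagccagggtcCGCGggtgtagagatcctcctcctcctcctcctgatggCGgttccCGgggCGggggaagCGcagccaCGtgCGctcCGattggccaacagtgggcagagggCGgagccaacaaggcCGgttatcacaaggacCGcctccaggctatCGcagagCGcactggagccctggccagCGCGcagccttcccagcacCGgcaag
The Kcnj2 window held 18 CG dinucleotides, the first Kcnj16 window 3 and the second 8. A melatonin peak came within 1.29 kb of the first Kcnj16 start site, where the nearest untreated peak was 13.6 kb away. Both libraries had a peak close to the second Kcnj16 start site, at 3.54 kb with melatonin and 3.86 kb without. At the Kcnj2 start site the distances were 5.08 kb and 15.1 kb. Kcnj16 has further start sites that are not shown, and there the untreated peak was the closer one. The distances at these were 17.6 and 21.8 kb with melatonin and 17.2 and 19 kb without.

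A melatonin peak was called in 14 of the 91 genes (15.4%, 95% Wilson interval 9.39 to 24.2), against 9.24% of all protein-coding genes on these chromosomes. An untreated peak was called in 12 (13.2%, 7.71 to 21.6), against 8.69%. Both lists had a peak in 7 genes (7.69%), against 3.79%. A peak with melatonin alone was found in 7 genes (7.69%, background 5.44%), and in 5 genes without melatonin alone (5.49%, background 4.9%). In all, 19 genes (20.9%, background 14.1%) had a peak in either list and 72 had none. Of the members, 5 had 2 or more melatonin peaks (5.49%, background 2.64%) and 7 had 2 or more untreated peaks (7.69%, background 2.71%). None of these all-gene shares takes gene length into account.

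Potassium channel genes are long, with a median of 36.2 kb against 17.5 kb for all protein-coding genes, and long genes offer more sequence for a peak. Each member was therefore set beside the 20 other protein-coding genes of its chromosome nearest to it in length. Of those neighbours, 16.8% had a melatonin peak and 16.9% an untreated peak, which corresponds to 15.2 and 15.4 genes where 14 and 12 were found. Both neighbour shares lie inside the members' Wilson intervals. For a peak in both lists the neighbour share was 10% (9.1 genes, with 7 found). For 2 or more peaks the neighbour shares were 7.42% with melatonin and 8.52% without (6.75 and 7.75 genes, with 5 and 7 found), inside the members' intervals of 2.37 to 12.2 and 3.78 to 15. Once length and chromosome are considered, the share of potassium channel genes with a peak was thus near the background in both libraries.

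The windows of the 91 genes covered 12.4 Mb and held 23 melatonin peaks (exact Poisson interval 14.6 to 34.5) and 24 untreated peaks (15.4 to 35.7). That is 1.85 peaks per Mb with melatonin (1.17 to 2.77) and 1.93 without (1.24 to 2.87), against 2.44 and 2.48 per Mb over the windows of all protein-coding genes. Melatonin peaks stood to untreated peaks as 0.958 to 1 (exact interval 0.517 to 1.77) in the potassium channel windows and 0.984 (0.936 to 1.04) over all gene windows. Summed over genes, the neighbours of matched length would give 35.6 melatonin and 39.3 untreated peaks. Both sums lie above the upper ends of the members' Poisson intervals, which leave out the spread among neighbours. Genes with many peaks enter the sums as 1 of 20 neighbours: 1 neighbour of Kcnma1 held 32 melatonin peaks. Why the members' counts lie below these sums was not tested.

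**Figure D1:**
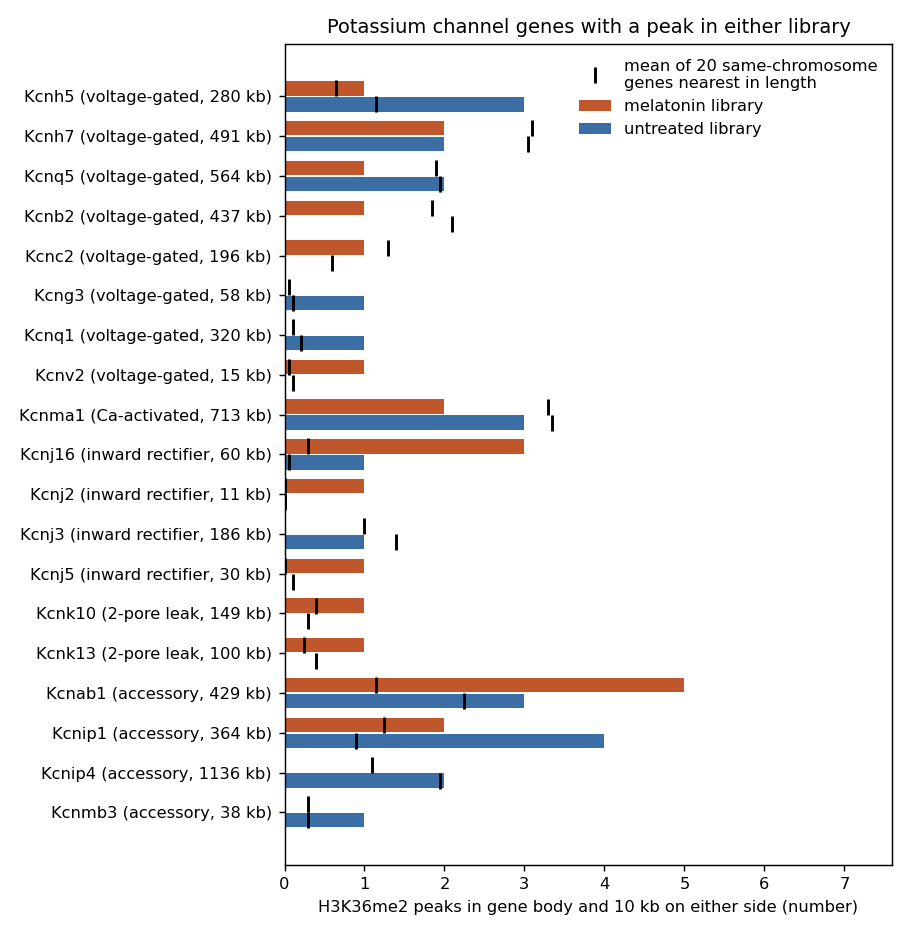
Bars give the number of H3K36me2 peaks in the body and 10 kb flanks of the 19 potassium channel genes with a peak, in the melatonin (orange) and untreated (blue) libraries, and black ticks the mean of the 20 genes of the same chromosome nearest in length. Kcnab1 had the most melatonin peaks (5) and Kcnip1 the most untreated peaks (4).

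Among the voltage-gated genes, 6 of 39 had a melatonin peak and 5 an untreated peak, where neighbours of like length would give 6.9 and 6.95 genes (17.7% and 17.8%). Kcnh7 and Kcnh5, which encode channels of the ether-à-go-go family, and Kcnq5, a Kv7 channel that carries a slow subthreshold current, had peaks in both lists. Kcnh7 (chromosome 2, 62693410 to 63184287) had 2 melatonin peaks, with authors' folds over input of 4.61 and 8.7, and 2 untreated peaks, with folds of 4.84 and 4.23. The melatonin peak at 62791619 to 62792870 and the untreated peak at 62798248 to 62799248 were 5.38 kb apart and did not overlap. The gene's other peaks lay 92.4 kb or more from any peak of the other library in it.

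Kcnh5 (chromosome 12, 74897217 to 75177332) had 1 melatonin peak, at 75067356 to 75068356 with a fold of 5.51. Without melatonin it had 3 peaks, with folds of 5.64, 4.08 and 6.41, and the closest of them was 16.7 kb from the melatonin peak. Its 20 neighbours of like length had means of 0.65 and 1.15 peaks, and up to 4 and 6, so both counts were within the range of genes of that size. Kcnq5 (chromosome 1, 21398399 to 21962650) had 1 melatonin peak (fold 4.72) and 2 untreated peaks (4.49 and 4.21), and 205 kb lay between the closest ones.

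Other voltage-gated genes were marked in a single library. With melatonin these were Kcnb2, a Kv2 delayed rectifier, Kcnc2, a fast Kv3 channel, and Kcnv2, a silent modifier subunit. The Kcnb2 peak at 15625618 to 15626618 on chromosome 1 had the highest fold of any potassium channel peak, 15.7, but rested on 1 input tag and 12.7 normalized tags (ChIP tags per 10000000 in the library), below the list's median of 13.4. The Kcnc2 peak had a fold of 4.02, at the edge of the required 4. The Kcnv2 peak lay 9.59 kb from the gene, the farthest of the peaks counted. Without melatonin, Kcng3, a modifier subunit, had 1 peak at 83582736 to 83583736 on chromosome 17 with a fold of 7.9, the highest of the untreated potassium channel peaks. Kcnq1, the Kv7 channel of heart and inner ear, had 1 untreated peak at 143351402 to 143352402 with a fold of 4.43. It was the only one of 9 members on chromosome 7 with a peak; that chromosome held 85 melatonin and 81 untreated peaks in all.

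The 31 voltage-gated genes without a peak included all 8 Kv1 genes (Kcna1 to Kcna7 and Kcna10) and both Kv4 genes of chromosomes 1 to 19, Kcnd2 and Kcnd3. The Kv1 genes are short, with a median of 11 kb, and 6.88% and 3.75% of their neighbours had a peak. Kcnd2, an A-type channel gene of 514 kb, was the longest member without a peak. Its nearest peaks lay 253 kb away with melatonin and 158 kb without. Of its neighbours nearest in length (355 to 725 kb), 70% and 45% had a peak. Kcnh1, which encodes the ether-à-go-go channel recorded in stromal cells, spans 321 kb and had none, with the nearest melatonin peak at 23.2 kb and the nearest untreated peak at 263 kb. Among its neighbours 40% had a melatonin peak and 50% an untreated peak.

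Of the 8 calcium- or sodium-activated channel genes, only Kcnma1 had a peak in either list, where neighbours of like length would give 2.25 genes with a melatonin peak and 2.3 with an untreated peak (28.1% and 28.8%). Kcnma1 (chromosome 14, 23292288 to 24005110) encodes the pore of the BK channel, which opens on depolarisation and calcium together. It had 2 melatonin peaks, at 23397647 to 23398647 (fold 5.22, 16.9 normalized tags) and 23570396 to 23571396 (fold 5.07, 12.3 normalized tags). Without melatonin it had 3, at 23341645 to 23342645 (fold 4.23), 23489598 to 23490598 (4.23) and 23673618 to 23674618 (6.96). None overlapped across the libraries, the closest being 55 kb apart. All 5 lay from 46.4% to 93% of the way along the gene from its start, so its first part held none. The neighbours nearest in length, which ranged from 396 to 1108 kb, had a median of 1 melatonin and 1.5 untreated peaks. Their means, 3.3 and 3.35, were raised by genes with up to 32 and 24 peaks, so Kcnma1 stood above the median and below the mean in both libraries. The region around it was peak-rich: the 500 kb on each side together held 18 melatonin and 17 untreated peaks.

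The SK and IK genes Kcnn1 to Kcnn4, the sodium-activated channel genes Kcnt1 and Kcnt2 and the sperm channel gene Kcnu1 had no peak. Kcnn4, the intermediate-conductance calcium-activated channel, is 15.4 kb long and lies on chromosome 7. Its nearest peaks were 424 kb away with melatonin and 3557 kb without. Kcnn2 and Kcnt2 are long, at 417 and 368 kb, and their nearest melatonin peaks were 294 and 637 kb away.

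**Figure D2:**
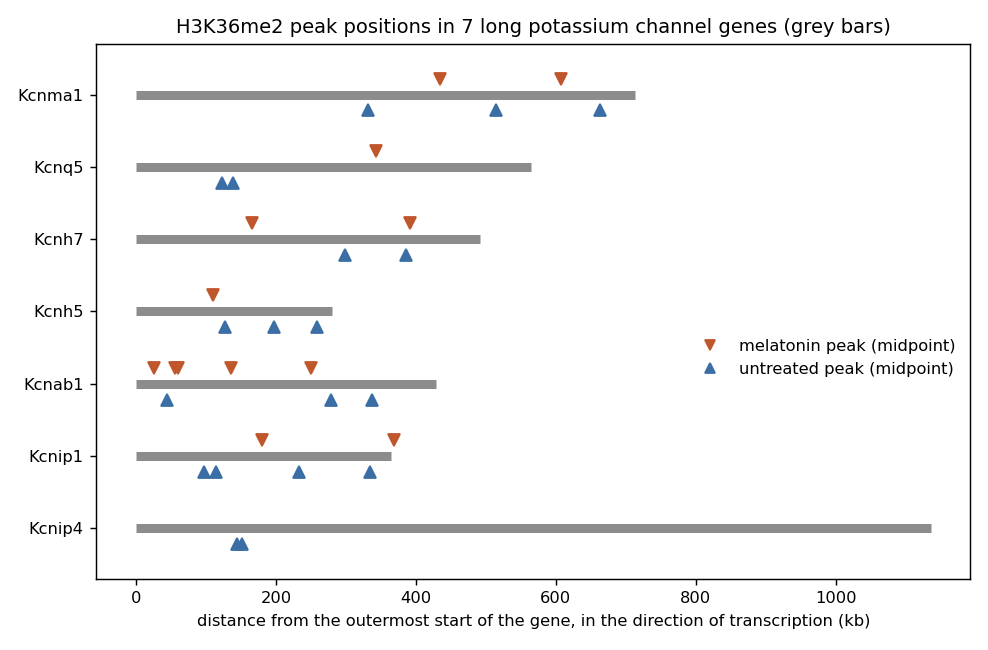
Grey bars are 7 long potassium channel genes drawn from their first base in the direction of transcription (kb), with triangles at the midpoints of melatonin peaks (orange, above) and untreated peaks (blue, below). Peaks of the libraries alternate along Kcnma1 and are mixed, without strict alternation, along Kcnh7, Kcnab1 and Kcnip1. They lie apart in Kcnq5 and Kcnh5, and come from the untreated library alone in Kcnip4. None overlap in these genes, and the closest pair, in Kcnh7, is 5.38 kb apart.

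Among the 15 inward rectifier genes, 3 had a melatonin peak and 2 an untreated peak, near the 1.8 and 1.55 genes (12% and 10.3%) that neighbours of like length would give. Kcnj16 (chromosome 11, 110968033 to 111027968) encodes Kir5.1, a subunit that pairs with Kir4.1 in kidney and brain, and was the only potassium channel gene with peaks that overlapped between the libraries. The melatonin peak at 111001024 to 111002024 (fold 7.39, 2 input tags, 12 normalized tags) and the untreated peak at 111001349 to 111002349 (fold 5.45, 3.1 input tags, 12.9 normalized tags) shared 676 bp. Their midpoints lay 4.04 and 4.36 kb past the second start site shown above. Kcnj16 had 2 further melatonin peaks, at 110965746 to 110966746 (fold 6.26) and 110982628 to 110983628 (fold 7.13), without an untreated counterpart. Its neighbours of like length had means of 0.3 melatonin and 0.05 untreated peaks, with at most 2 and 1 in a gene, so 3 melatonin peaks exceeded all 20 of them.

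Kcnj2 (chromosome 11, 111066164 to 111076825) encodes Kir2.1, the classical strong inward rectifier. Its 1 melatonin peak, at 111060086 to 111061086 (fold 4.64, 16.9 normalized tags), lay 5.08 kb before the gene, so it counts for Kcnj2 only through the 10 kb flank and is lost with the gene body alone or with 2 kb. No untreated peak fell in its window, although 1 ended 15.1 kb before the gene. None of the 20 neighbours of like length had a peak in either list. The genes are 38.2 kb apart. The stretch from 10 kb before Kcnj16 to 10 kb after Kcnj2 held 5 melatonin and 3 untreated peaks. The peaks between the genes came close without touching: a melatonin peak at 111048347 to 111049347 and an untreated peak at 111050112 to 111051112 were among them.

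This part of chromosome 11 was dense in peaks of both libraries. The 500 kb before the stretch, toward Map2k6, held 16 melatonin and 27 untreated peaks, of which 2 in each list overlapped the other. The 500 kb after it, toward Sox9, held 1 and 2. The 1 Mb around the Kcnj2 window held more melatonin peaks (21) than that around any other member, where the median was 2. For untreated peaks it shared the highest value, 31, with the overlapping region around Kcnj16, against a median of 1. Which of the nearby genes, if any, these peaks belong to was not tested.

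**Figure D3:**
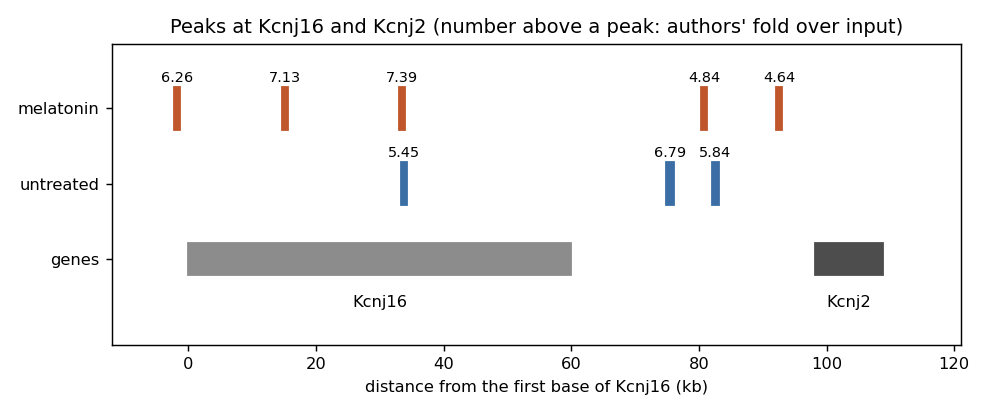
Peaks at Kcnj16 and Kcnj2 are drawn to scale against the distance from the first base of Kcnj16 (kb), with the authors' fold over input above each. The melatonin library has 5 peaks and the untreated library 3, and the peaks with folds of 7.39 and 5.45 overlap.

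Kcnj5 and Kcnj3 encode Kir3 subunits opened by G proteins, and each had a peak in 1 list. Kcnj5 (chromosome 9, 32314706 to 32344380) had a melatonin peak at 32315371 to 32316371 with a fold of 4.13, at the far end of the gene from its start. Kcnj3 (chromosome 2, 55411798 to 55598145) had an untreated peak at 55574282 to 55575722 with a fold of 4.3, and a melatonin peak lay 10.6 kb from the gene, just outside the window. The other 11 inward rectifier genes, Kcnj8 and Kcnj11 of the ATP-sensitive channels among them, had no peak.

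Of the 14 leak channel genes, 2 had a melatonin peak and none an untreated peak. These were Kcnk10 (TREK-2, a mechanically gated channel) and Kcnk13 (THIK-1), both on chromosome 12. The Kcnk10 peak at 98552266 to 98553266 and the Kcnk13 peak at 99977061 to 99978061 had the same values, a fold of 5.36 and 13 normalized tags. The neighbours of the 14 genes would give 1.85 genes with a melatonin peak and 1.45 with an untreated peak. All these counts are small, and the difference between 2 and 0 was not tested. Kcnk2, the mechanically gated TREK-1 gene, fell just outside the 10 kb limit in both libraries, with a melatonin peak at 11.3 kb and an untreated peak at 10.4 kb.

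Of the 15 accessory subunit genes, 2 had a melatonin peak and 4 an untreated peak, near the 2.45 and 3.15 genes (16.3% and 21%) that neighbours of like length would give. The genes with the most peaks, Kcnab1 and Kcnip1, were here. Kcnab1 (chromosome 3, 64949212 to 65378225) encodes a Kv beta subunit that speeds inactivation of Kv1 channels. It had 5 melatonin peaks with folds of 4.93, 4.49, 4.47, 5.65 and 7.39, and 3 untreated peaks with folds of 4.91, 5 and 5.48. The closest across the libraries were 9.43 kb apart, at 65003618 to 65005029 with melatonin and 64992925 to 64994190 without. The former carried 21.9 normalized tags, the highest tag count of any melatonin peak in these windows. Its neighbours of like length had means of 1.15 and 2.25 peaks and at most 5 and 12, so 5 melatonin peaks equalled the highest of them.

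Kcnip1 and Kcnip4 encode calcium sensors that bind Kv4 channels. Kcnip1 (chromosome 11, 33629339 to 33993348) had 2 melatonin peaks with folds of 4.54 and 5.51, the former 4.28 kb outside the gene and so lost with the gene body alone or with 2 kb. It had 4 untreated peaks, with folds of 4.12, 4.3, 5.58 and 4.27. The untreated peak at 33878492 to 33880083 carried 23.1 normalized tags, the highest of the untreated potassium channel peaks, and 33.7 kb separated the closest peaks of the libraries. The BK beta subunit gene Kcnmb1 lies inside Kcnip1, and no Kcnip1 peak fell in its window. Kcnip4 (chromosome 5, 48389503 to 49525122), the longest member at 1136 kb, had 2 untreated peaks, at 49373332 to 49374332 (fold 5.13) and 49380968 to 49381968 (fold 4.1). It had no melatonin peak, the nearest being 65.3 kb away. Kcnmb3, another BK beta subunit gene, had 1 untreated peak at 32501920 to 32502920 on chromosome 3 (fold 5.45). That peak lay at the outermost base of the gene, 9.95 kb before its only start site in the promoter table. The 4 MinK-related genes Kcne1 to Kcne4 had none.

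Further members were without a peak. Among the voltage-gated genes these included Kcnc1, Kcnc4, Kcnf1, Kcng1, Kcng2, Kcng4, Kcnh2, Kcnh3, Kcnh4, Kcnh6, Kcnh8, Kcnq3, Kcns1, Kcns2, Kcns3 and Kcnv1. The inward rectifier genes were Kcnj1, Kcnj4, Kcnj6, Kcnj9, Kcnj10, Kcnj12, Kcnj13, Kcnj14 and Kcnj15, and the leak channel genes Kcnk1, Kcnk3, Kcnk4, Kcnk5, Kcnk6, Kcnk7, Kcnk9, Kcnk12, Kcnk15, Kcnk16 and Kcnk18. The accessory genes were Kcnab2, Kcnab3, Kcnip2, Kcnip3, Kcnmb2 and Kcnmb4.

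Members with peaks were longer than those without. The 7 genes with a peak in both lists had a median length of 429 kb, those with melatonin alone 99.5 kb, those without melatonin alone 186 kb, and the 72 without a peak 25.5 kb. Of the 8 genes of 400 kb or more, 5 had a melatonin peak and 5 an untreated peak (62.5% each, Wilson interval 30.6 to 86.3). This was against 52.1% and 50% of all 338 genes of that length. The 2 sets were not the same genes, and 4 had a peak in both lists (50%, against 42.3%). Of the 10 genes from 200 to 400 kb, 2 had a melatonin peak (20%, 5.67 to 51) and 3 an untreated peak (30%, 10.8 to 60.3), against 41.2% and 42.2% of 607 genes. Those without a peak were Kcnh8, Kcnt2, Kcnh1, Kcnq3, Kcnmb2, Kcnj6 and Kcnd3. Of the 53 genes under 50 kb, 3 had a melatonin peak and 1 an untreated peak (5.66% and 1.89%, against 4.83% and 4.39%). These were Kcnj2, Kcnj5 and Kcnv2 with melatonin and Kcnmb3 without. In every length band the members' intervals included the share of all genes.

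**Figure D4:**
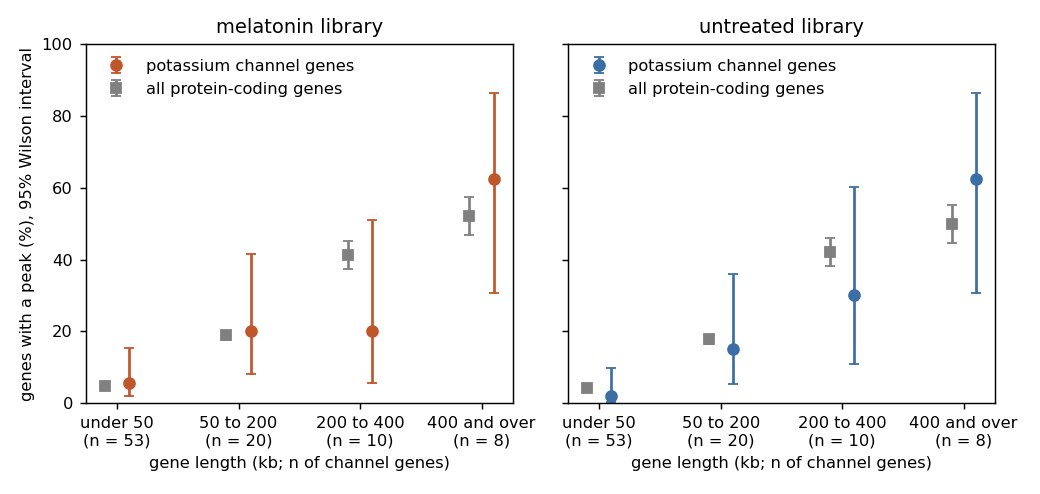
Points give the share of genes (%) with a peak by gene length, for potassium channel genes (coloured circles) and all protein-coding genes (grey squares), with 95% Wilson intervals, in the melatonin (left) and untreated (right) libraries. The share climbs with length in the grey points of both libraries, and every coloured interval contains the grey value of its band.

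The peaks in potassium channel windows were of ordinary strength for their lists. With melatonin they carried 12 to 21.9 normalized tags, with a median of 13.4, the same as the whole list. Without melatonin they carried 12.1 to 23.1, with a median of 14.2 against 13.6. The median fold was 5.22 with melatonin (5.11 in the whole list) and 4.67 without (4.87). A fold of at least 6 was reached by 6 of 23 melatonin peaks (26.1%, against 30.1% of the list) and 3 of 24 untreated peaks (12.5%, against 24.1%). The 6 were in Kcnb2, Kcnh7, Kcnab1 and, with 3, Kcnj16; the 3 were in Kcnh5, Kcnma1 and Kcng3. Input tags in these peaks had medians of 3 and 3.9 per kb, against 3 and 3.5 over the lists. Folds are the authors' own per-peak values and rank peaks only within a list. Ordinary here is relative to lists whose peaks held about 1.12% of ChIP tags with melatonin and 1.24% without. In the whole lists 79.2% and 79.6% of peaks were 1000 bp wide, the width of 1 window. The same width was found for 19 of 23 melatonin and 18 of 24 untreated peaks in potassium channel windows.

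**Figure D5:**
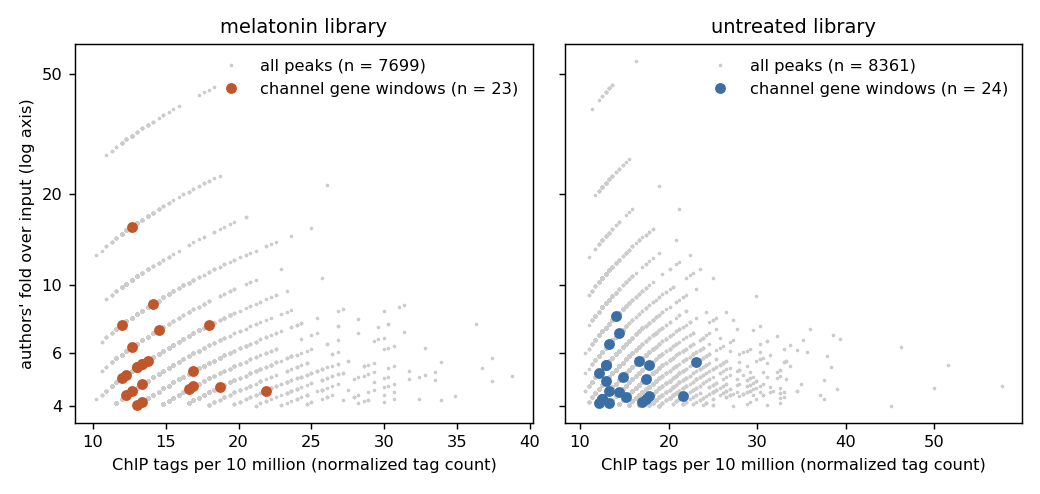
Each point is a peak, with ChIP tags per 10000000 on the horizontal axis and the authors' fold over input on a log vertical axis, for all peaks (grey) and those in potassium channel windows (coloured). The Kcnb2 peak stands highest among the melatonin potassium channel peaks at a fold of 15.7, and the others lie within the body of the grey points.

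Across the libraries, 1 of 23 melatonin peaks (4.35%, Wilson interval 0.772 to 21) and 1 of 24 untreated peaks (4.17%, 0.739 to 20.2) overlapped, both at Kcnj16. Over all protein-coding gene windows the shares were 3.86% and 3.77%. In the other 6 genes marked in both lists the closest peaks were from 5.38 kb (Kcnh7) to 205 kb (Kcnq5) apart. The gene-level count of 7 therefore describes marking of the same gene, and position-level overlap only once.

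All 24 untreated peaks overlapped a gene body, as did 19 of 23 melatonin peaks. The 4 melatonin peaks in flanks (17.4%) were those of Kcnip1, Kcnj16, Kcnj2 and Kcnv2. Over all protein-coding gene windows, 24.6% of melatonin and 22.9% of untreated peaks lay in flanks. The promoter table held 92 start sites of 67 members. None of these sites was inside a peak of either list, 2 lay within 5 kb of a melatonin peak and 1 of an untreated peak, all at Kcnj16. The median distance from a start site to the nearest peak was 236 kb with melatonin and 220.4 kb without. Members with a peak in either list had a median of 7 CG dinucleotides per promoter window (29 windows, 16 genes) and those without had 10 (63 windows, 51 genes), against 14 over all 20085 windows of protein-coding genes. The motif TATAAA, on either strand, was found in 2 of the 29 windows and 3 of the 63, against 12.7% of all windows.

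Regional density also differed among members. The 500 kb on each side of the window, window excluded, held a median of 4 melatonin and 10 untreated peaks for the 7 genes marked in both lists. For the 7 genes marked with melatonin alone these medians were 5 and 7, for the 5 marked without melatonin alone 2 and 2, and for the 72 genes without a peak 1 and 1. The medians of the genes marked without melatonin alone were thus close to those of the genes without a peak. Single genes varied, with 0 to 10 untreated peaks around the former and 0 to 13 around the latter. The range was 0 to 31 for the genes marked in both lists and also for those marked with melatonin alone. The value of 31 came from the overlapping regions around Kcnj16 and Kcnj2, counted once in each group. The part of regional density in the members' own counts was not tested.

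Genes that work with potassium channels but carry other symbols were read the same way. Of 30 such partners, 5 had a melatonin peak and 5 an untreated peak (9.24% and 8.69% of all genes), 3 of them in both lists (3.79% of all genes). The 20 genes nearest to each in length on its chromosome would give 5.45 and 5.05, so the partners were near that background. Dlg2 (PSD-93), a scaffold that binds Kv1 and Kir2 channels, had 3 and 4 peaks over 1973 kb, with 1 melatonin peak overlapping an untreated one. Ank2, an ankyrin, had 2 and 3, with best folds of 4.09 and 21.8. Cntnap2 (Caspr2), which gathers Kv1 channels beside the node of Ranvier, had 1 and 1 over 2241 kb. Akap9, the yotiao anchor of the Kcnq1 channel, had 3 peaks with melatonin alone (best fold 5.36). Nedd4l, a ubiquitin ligase, had 2 without melatonin alone (best fold 10.6), as did Ank3 (5.13).

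Among other ion transport genes, 1 of 14 sodium channel genes had a peak in each list (Scn3a, with 2 and 2). Of 17 calcium channel genes 6 had a melatonin peak and 4 an untreated peak, and of 20 potassium pumps and cotransporters 3 and 1. These lists differ in gene length, with medians of 103, 159 and 30.3 kb. Genes of like length would give 2.6 and 2.4 for the sodium channels, 6.2 and 5.85 for the calcium channels, and 3.05 and 2.9 for the pumps and cotransporters. The labelled cell type cannot be checked by expression in these data. Of 15 stromal marker genes (median 39.9 kb), 2 had a melatonin peak and 7 an untreated peak, where 9.24% and 8.69% of all genes did and genes of like length would give 1.3 and 1.25. For 10 macrophage markers (median 44.6 kb) these counts were 2 and 3, with 1.1 and 1.45 from genes of like length. For 8 endothelial markers (75.5 kb) they were 4 and 3, with 1.25 and 1.1, and for the 8 neuronal markers on chromosomes 1 to 19 (345 kb) 4 and 3, with 3.4 and 3.1. All lists in this paragraph were chosen with earlier results of these data known. Their like-length values were added after the counts were seen. The marker counts are therefore no check of cell type, and differences between the 2 libraries at these genes were not tested.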

How the data were processed

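The melatonin and untreated ChIP libraries held 14180076.5 and 13198427.5 tags. The authors called 7699 and 8361 peaks with HOMER findPeaks in histone style, each library against its own input, per the file headers. The headers give a tag threshold of 18 or 17 per window of 1000 bp, a minimum of 4 times the input, and 1e-04 as the Poisson p. The lowest findPeaks scores were 18 and 17, so the threshold holds for that score; the normalized tags of listed peaks start at 10.2 and 10.6, below it. BWA 0.7.13, Picard 1.126 and MACS2 2.1.0 are named in the submitters' processing notes, and HOMER's version is not given in the sources used here.

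Normalized tags are a deposited signal, ChIP tags per 10000000. In each library the deeper of ChIP and input was scaled down by the authors in the deposited tag signal (ChIP with melatonin, input without). Folds over input are a deposited ratio, p-values over input were deposited unadjusted, and the deposited findPeaks score was used only to check the threshold.

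The notes name mm39, yet chromosomes 3 and 7 have peaks ending at 159805034 and 145328623, past their ends in that build. Peak midpoints fell in protein-coding genes of GRCm38.p6 RefSeq least often without a shift (29.1% and 27.9%, against 34.2% and 32.3% at -20 kb), so coordinates were read as GRCm38. The gene table has no exons, so exon and intron were not separated. Strand and start sites came from the promoter table, which covers 67 of the 91 genes.

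Distinct peaks were counted once. The 20 neighbours of a gene describe a background and are no test; for the other gene lists they were added after the counts were seen. Wilson, exact Poisson and exact binomial intervals are at 95%; without molecular identifiers, amplified reads are not separate molecules, so they cover counting error only. Named by rule are genes with overlapping peaks, the 8 with most peaks, the 6 with the highest fold at an unshared peak per list, 8 chosen channels (Kcnma1, Kcnn4, Kcnj2, Kcnh1, Kcnk2, Kcnd2, Kcnq1 and Kcnj16), and partners with peaks in both lists or among the 3 highest in fold per list. For some genes the result is not reported here. Other names account for remaining members or were chosen after their values were seen (Ank3, Scn3a). Members, rules and the partner, sodium channel, calcium channel, pump, stromal, macrophage, endothelial and neuronal lists were chosen with earlier results of these data known. Counting was tested on simulated data, with Python 3.11.15, pandas 2.3.3 and scipy 1.17.1.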

Additional observations from a re-analysis of the deposited data

How the results depend on the processing

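Gene bodies alone, or with 2 kb, gave counts over all members within 1.5 times those reported. They took the melatonin peaks of Kcnj2 from 1 to 0 and of Kcnip1 from 2 to 1, and the Kcnv2 peak is lost too. Kcnj16 went from 3 melatonin peaks to 2 with the gene body alone and kept 3 with 2 kb. With peaks of a fold of at least 6 only, 4 of 91 members had a melatonin peak, 3 an untreated peak and 0 both. These came from 6 and 3 peaks (ratio 2), with 0 overlapping. Of neighbours of like length, 8.24% had a melatonin peak and 7.31% an untreated peak, and the members' shares lay below both. With the 4000 peaks of lowest p per list, 10 of 91 members had a melatonin peak, 7 an untreated peak and 4 a peak in both. These came from 15 and 11 peaks, with 0 overlapping. The neighbour shares were then 11.3% with melatonin and 11.5% without, and the members' shares again lay below both. No interval was computed for the members under these thresholds. Without Kcnj16 and Kcnj2, an alternative chosen after seeing the data, 0 peaks overlapped and the other counts stayed within 1.5 times. Fewer peaks enter under the stricter thresholds by construction. Taking 10 neighbours, or 200 over all chromosomes, gave shares of 16.7% and 16.7% with melatonin and 16.5% and 15.7% without. Overlap of 50% of both peaks, or edges within 1 kb, left 1 shared melatonin peak. No paired analysis was possible because each condition has 1 ChIP library. For the same reason no library could be left out. Since a findPeaks score of 18 or 17 was the lowest listed, weaker marking at genes without a peak was not detectable in these lists.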
